A study of Homo sapiens with 6 samples.

Results

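Collagen chains are the subunits of the collagen superfamily, and 54 of the 28264 probes on these arrays were annotated to a gene named COL followed by a type number, A and a chain number. They stood for 43 of the 19090 named genes, of which 33 had 1 probe and 10 had several. The fibrillar collagens held 11 genes (15 probes), the type IV collagens of basement membranes 6 genes (7 probes) and the other types 26 genes (32 probes). Of the 44 protein-coding genes of that name pattern in RefSeq, COL17A1 had no probe named here. The series holds 6 single-colour Cy3 arrays of cells labelled Hep3B, an established line from a hepatocellular carcinoma, grown in DMEM with 10% FBS. In the labels, 3 arrays carry cells transfected with a vector, named GFP in the titles, and 3 carry cells transfected with CCN5, also called WISP2, a secreted matricellular protein. The promoter and form of the transfected construct, the time after transfection and the origin of the replicates (separate cultures or not) were not given in the sources used here, and p-values thus reflect variation among these 6 arrays, and that variation may be technical. No untransfected cells were analysed here.

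Collagen chains wind around one another into helical trimers inside the endoplasmic reticulum, where prolyl and lysyl hydroxylases modify them, and are trimmed, cross-linked and assembled outside the cell. Fibrillar types form the banded fibres of connective tissue, type IV forms the sheet-like network of basement membranes, and the others decorate fibrils, anchor epithelia or span the membrane. In liver, stellate cells and fibroblasts are known as the main producers of fibrillar collagen. The comparison asked whether the cells labelled as given CCN5 differed from those labelled vector in these transcripts. Differences are log2 differences of quantile-normalized intensity, CCN5 label minus vector label, tested with limma over all 28264 probes with Benjamini-Hochberg adjustment at 0.05.

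The regions before the starts of a few genes are shown first, from the RefSeq promoter table of GRCh38.p14, which held 31 of the 43 genes. COL7A1 is shown because its difference between the labels was the most negative of the 54 probes. COL16A1 and COL27A1 are examples of genes whose arrays separated by label, CCN5 below vector. Neither passed the test under any setting. Other such genes, COL9A3 and COL18A1 among them, are not shown. COL4A1 and COL4A2 are shown because they start back to back and their values can be set side by side. Capitals mark motif matches on either strand. The TATA box was searched as TATAAA, the box of nuclear factor Y by the letters CCAAT, the GC box of Sp proteins by the letters GGGCGG and the AP-1 site by the letters TGANTCA. In the 4 stretches shown no match overlaps another.
COL7A1 on chromosome 3, minus strand, chr3:48595330-48595579, the 250 bases before the start: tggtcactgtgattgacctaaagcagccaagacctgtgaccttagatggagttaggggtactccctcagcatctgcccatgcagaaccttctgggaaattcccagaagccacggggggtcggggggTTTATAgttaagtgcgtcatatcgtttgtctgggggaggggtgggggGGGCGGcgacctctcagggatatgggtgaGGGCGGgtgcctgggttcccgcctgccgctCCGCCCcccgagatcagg
COL16A1 on chromosome 1, minus strand, chr1:31704018-31704267, the 250 bases before the start: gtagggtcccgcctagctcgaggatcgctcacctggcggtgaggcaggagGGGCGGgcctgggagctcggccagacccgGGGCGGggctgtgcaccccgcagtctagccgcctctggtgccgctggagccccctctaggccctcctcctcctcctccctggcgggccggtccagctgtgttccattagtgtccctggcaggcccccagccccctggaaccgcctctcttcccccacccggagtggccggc
COL27A1 on chromosome 9, plus strand, chr9:114155287-114155536, the 250 bases before the start: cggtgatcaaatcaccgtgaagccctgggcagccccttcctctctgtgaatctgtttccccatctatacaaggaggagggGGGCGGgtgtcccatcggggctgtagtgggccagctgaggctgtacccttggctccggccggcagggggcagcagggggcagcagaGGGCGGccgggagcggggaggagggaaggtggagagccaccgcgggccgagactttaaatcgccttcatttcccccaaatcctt
Between COL4A1 and COL4A2 on chromosome 13, on the strand of COL4A2, chr13:110307158-110307283, all 126 bases between both starts: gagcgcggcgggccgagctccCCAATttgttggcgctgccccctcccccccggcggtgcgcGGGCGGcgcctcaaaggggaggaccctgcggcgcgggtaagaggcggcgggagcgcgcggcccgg

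The COL7A1 window held 3 GC boxes and a TATA box match on the opposite strand 124 bases before the start. COL16A1 and COL27A1 held 2 GC boxes each and no TATA box match. The COL4A1 to COL4A2 interval held 1 CCAAT box and 1 GC box, and 80.2% of its bases were G or C. Over all 35114 windows of 250 bases, 42.6% held a GC box, 32.0% a CCAAT box, 10.7% a TATA box and 6.57% an AP-1 site. Of the 43 windows of collagen genes, some genes having several starts, 24 held a GC box (55.8%), 11 a CCAAT box (25.6%), 7 a TATA box (16.3%) and 1 an AP-1 site (2.33%). These matches describe the letters of the windows and were not tested for function.

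Before the results, the labels were set against the data. The single CCN5 probe was lower, not higher, in the arrays labelled CCN5, with intensities of 835, 836 and 880 on the vector arrays and 673, 672 and 619 on the CCN5 arrays. The labels did not overlap (log2 difference -0.34, two-sided exact permutation test p = 0.1, which is the lower limit for groups of 3), so each direction below rests on the labels alone. Whether that probe reads the transfected construct was not given in the sources used here. Defining liver markers were dim. ALB read 30.9 to 84.9 and AFP 99.3 to 183 over the 6 arrays, at percentiles 12.2 and 26.7 of signal over all probes, and 10 of 13 measured hepatocyte and hepatoma markers lay below the 50th percentile. Keratins of squamous epithelium were bright, KRT5 at percentile 98.4 and KRT14 at 95.4, and all 7 measured members of that list lay above the 50th. Of 5 measured simple epithelium markers, 4 lay above the 50th as well. Array medians ran from 504 to 600, and vector replicate 1 held 1330 values below 0, against at most 12 on each other array.

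Most collagen probes were dim. In all, 40 of the 54 probes lay below the 50th percentile of mean signal and 23 below the 25th. By the brightest probe of each gene, 13 of 43 collagen genes (30.2%) lay above the 50th percentile, against 55.3% of all named genes. The percentile only places a probe among all signals, since brightness also depends on the probe, and is not an order of transcript levels. The 13 were the fibrillar COL5A1, COL1A1 and COL27A1, the basement membrane COL4A1, COL4A2, COL4A5 and COL4A6, and COL7A1, COL9A3, COL16A1, COL12A1, COL14A1 and COL6A2 of the other types. Several chains that fibroblasts make in quantity were dim, although others, COL1A1, COL5A1, COL12A1 and COL6A2, were among the 13 above the 50th percentile. COL3A1, the chain of type III fibrils, read 1.99, 57.8 and 36.2 on vector replicates 1 to 3 and 23.0, 23.6 and 51.6 on CCN5 replicates 1 to 3. COL1A2, the partner chain of COL1A1 in type I collagen, lay at percentiles 13.7 and 2.89 by its 2 probes, and COL6A3, a type VI chain, at 8.86 and 0.704. Of 12 measured fibroblast and stellate cell markers 7 lay below the 50th percentile, among them DCN and POSTN, while FBLN1, ACTA2 and LUM lay above it. The summed intensity of these 12 was 13933 to 15544 on the vector arrays and 12269 to 12704 on the CCN5 arrays, and its part in the collagen values was not tested. A summed list of leukocyte markers was also lower, at 4859 to 5484 on the vector arrays and 3633 to 4074 on the CCN5 arrays. Sums of hepatocyte, simple epithelium, squamous epithelium and endothelial markers overlapped between the labels.

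No collagen probe passed the test over all probes, as was true of every other probe on the arrays (0% called lower and 0% called higher). At an unadjusted limma p under 0.05, 8 of the 54 collagen probes were lower with the CCN5 label, or 14.8%, against 10.4% of all probes, and 0 were higher, against 8.62%. The labels separated with CCN5 below for 9 collagen probes, or 16.7%, against 14.8% of all probes, and with CCN5 above for 2, against 11.8%. Counts of separated labels, here and below, use quantile-normalized values. The 2 with CCN5 above, both probes of COL25A1, overlapped in deposited intensity. So did the probes of COL5A2 and COL5A3 among the 9 with CCN5 below. Over all 54 probes 31 were lower, against 50.8% of all probes, but on the deposited scale 22 were and with median centring 19. Over the 43 genes, 27 were lower and 16 higher, with a median log2 difference of -0.044 beside -0.011 over all named genes. On the deposited scale the collagen median was 0.018, and with each array centred on its median 0.062, beside 0.018 and 0.062 over all named genes. The split of the 43 genes was then 20 lower and 23 higher, and 17 lower and 26 higher, against 47.1% and 40.0% lower among all named genes. Without CCN5 replicate 2 the collagen median was 0.031.

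Bright and dim probes were also counted apart. Among the 14 collagen probes above the 50th percentile, 10 were lower (50.5% of all bright probes were), 5 had an unadjusted p under 0.05 and were lower (11.9% of all bright probes), and 0 were higher at that level (10.8%). For 5 of the 14 the labels separated with CCN5 below, against 18.4% of all bright probes, and for 0 with CCN5 above, against 16.1%. When the dimmer 50% of probes were left out of the fit, 3 of the 14 passed as lower (21.4%) and 0 as higher, beside 4.01% and 3.06% of the 14132 probes tested. They were the probe of COL7A1, 1 of the 2 probes of COL5A1 and the probe of COL9A3. Without the dimmest 25% of probes, 1 of 31 passed as lower (3.23%, against 0.712% of all probes tested) and 0 as higher (0.156%). With a trended, robust variance 2 of 54 passed as lower (3.7%, against 1.19%) and 0 as higher (0.665%). On log2(value + 50) 1 of 54 passed as lower (1.85%, against 0.637%) and 0 as higher (0.209%). The 40 dimmer probes split into 21 lower and 19 higher with a median of -0.014, against 51% lower among all dim probes. On the deposited scale 11 of the 40 were lower and 29 higher, and with median centring 10 and 30, while of the 14 bright probes 11 and 9 were lower. Neither setting used quantile normalization, and on vector replicate 1 5.35% of all probes were set to 1. The part of that array in these splits was not tested. At an unadjusted p under 0.05, 3 were lower (8.83% of all dim probes) and 0 higher (6.47%). The labels separated for 4 with CCN5 below (11.1%) and for 2 with CCN5 above (7.5%).

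**Figure D1:**
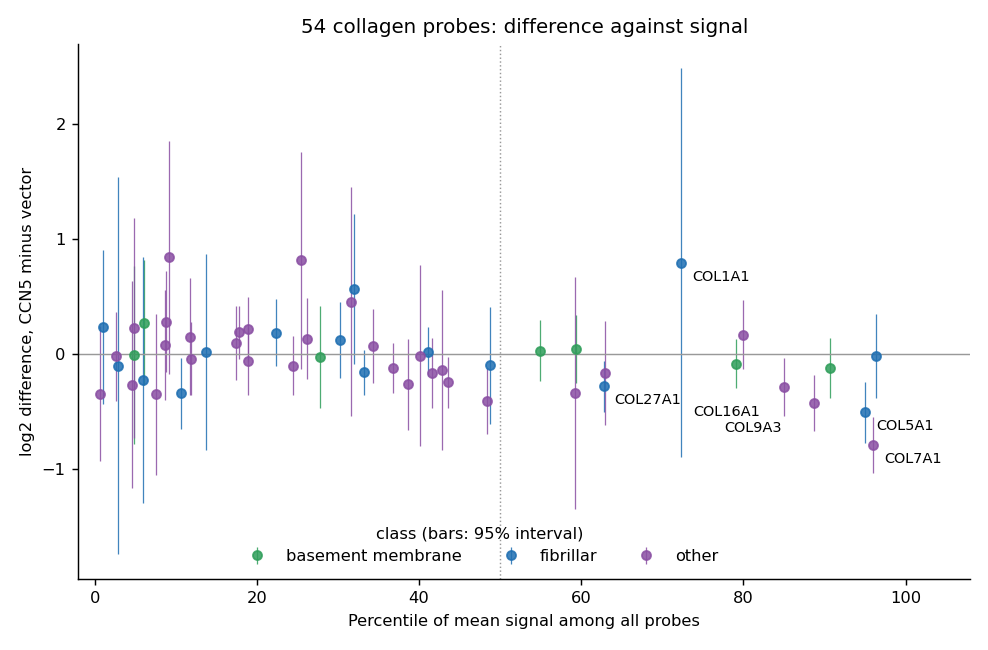
Log2 difference of each of the 54 collagen probes (CCN5 label minus vector label, vertical axis, bars are 95% intervals of limma's fit) against its percentile of mean signal among all probes (horizontal axis), coloured by class. COL7A1 lies lowest at -0.80, the interval of COL1A1 runs from -0.90 to 2.48, and intervals to the left of the dotted 50th percentile are mostly wide and include 0.

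COL7A1 had the most negative difference of the 54 probes. Dim second probes of COL6A6 (0.84, SE 0.42) and COL14A1 (0.81, SE 0.39) differed by as much in the other direction, with 95% intervals that include 0. COL7A1 encodes the chain of type VII collagen, which forms the anchoring fibrils that fasten the epidermal basement membrane to the underlying tissue. Its intensity was 29387, 31310 and 32249 on vector replicates 1 to 3 and 17850, 19938 and 17163 on CCN5 replicates 1 to 3. The highest array labelled CCN5 thus lay far below the lowest labelled vector. The means were 30982 ± 1459 (SD, n = 3) and 18317 ± 1445 (SD, n = 3), and the log2 difference was -0.80 (SE 0.10, 95% interval -1.04 to -0.55), a 1.74-fold lower normalized signal. Limma's adjusted p was 0.0969, above the threshold. It was 0.0117 without the dimmer 50% of probes, 0.0371 without the dimmest 25%, 0.0311 on log2(value + 50) and 0.0117 with a trended, robust variance. Without any 1 array the difference stayed between -0.85 and -0.75, at an adjusted p of 0.0821 to 0.394. In bulk RNA, fewer cells of a type and less RNA per cell cannot be told apart, which holds for each difference given here.

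Partners of type VII collagen at the epithelial base were bright. All 6 measured genes of the hemidesmosome and anchoring list lay above the 50th percentile. Of these 5 were lower and 1 higher (4 and 2 on the deposited scale), and 0 passed. Among all named genes 51.9% were lower, and 47.1% on the deposited scale. With a trended, robust variance DST (limma's adjusted p 0.0233) and ITGB4 (0.0375) passed as lower, against 1.19% of all probes. On log2(value + 50) DST did (0.0446), against 0.637%. Without the dimmest 25% of probes DST passed as lower, against 0.712% of the probes tested. Without the dimmest 50% DST and ITGB4 did, against 4.01% of the probes tested. In the same order, 265 and 141 of 19090 named genes, 124 of 14962 and 447 of 10560 passed as lower. As higher 138, 42, 24 and 317 named genes passed, and 0 of the 6. ITGB4, the beta chain of the hemidesmosome integrin, stood at -0.40 (SE 0.089), and a second, dimmer probe gave -0.49. DST, which encodes the plaque protein dystonin, stood at -0.76 by its brightest probe, but its other probes gave 0.15 and -0.086. CD151, a tetraspanin, stood at -0.25, and PLEC, which encodes the linker plectin, at 0.26.

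**Figure D2:**
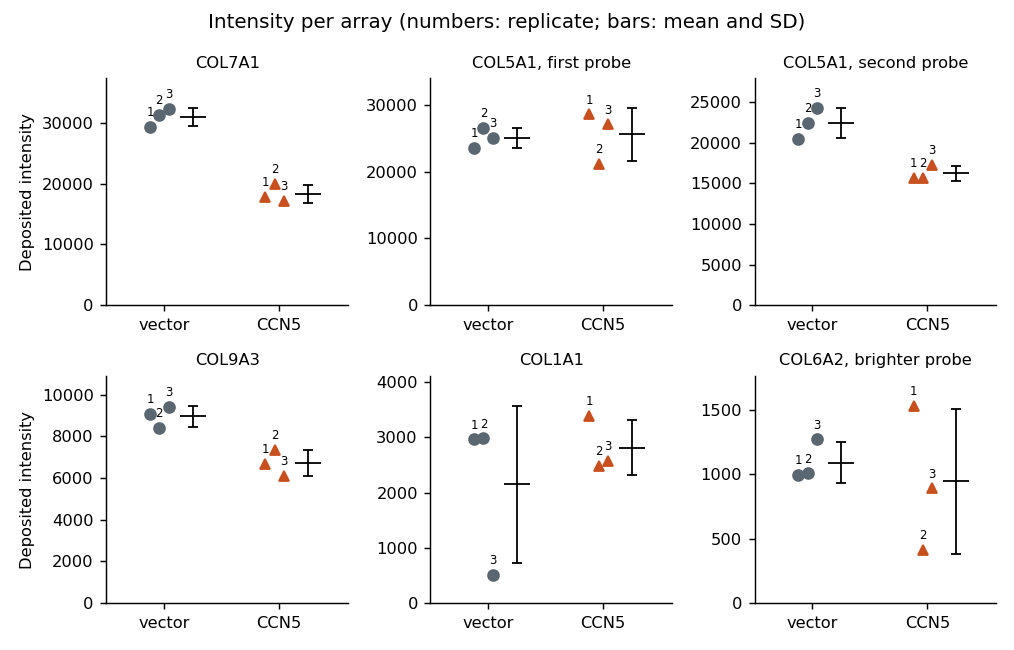
Deposited intensity (linear scale from 0) per array for COL7A1, both COL5A1 probes, COL9A3, COL1A1 and the brighter COL6A2 probe, with points numbered by replicate and bars for mean and SD (n = 3). The 3 CCN5 arrays lie below the 3 vector arrays for COL7A1, the second COL5A1 probe and COL9A3, while COL1A1 and COL6A2 each hold a single low array (511 on vector replicate 3, 411 on CCN5 replicate 2).

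Among fibrillar collagens, COL5A1 gave different values by its 2 probes. Its chain belongs to type V collagen, which nucleates type I fibrils and limits their width. The first, brightest probe read 23619, 26594 and 25115 on vector replicates 1 to 3 and 28592, 21128 and 27086 on CCN5 replicates 1 to 3, so the labels overlapped (-0.021, 95% interval -0.39 to 0.34). The second probe read 20531, 22498 and 24262 with the vector label and 15673, 15730 and 17314 with the CCN5 label, and the labels did not overlap. Its difference was -0.51 (SE 0.11, limma's adjusted p 0.131, and 0.0326 without the dimmer 50% of probes). Which part of the transcript each probe reads was not given in the sources used here.

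COL1A1, the major chain of type I collagen, read 2965 and 2983 on vector replicates 1 and 2, 511 on vector replicate 3, and 3387, 2482 and 2578 on CCN5 replicates 1 to 3. One array of the vector label stood far below the other 5. The difference of 0.79 (SE 0.70) had a 95% interval of -0.90 to 2.48 and became -0.087 without vector replicate 3. COL27A1, a fibrillar chain of developing cartilage, read 1334, 1347 and 1298 with the vector label and 1137, 1130 and 937 with the CCN5 label. These did not overlap, and the difference was -0.28 (SE 0.093, limma's adjusted p 0.193).

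The other type V chains were dim. COL5A2 read 18.9, 72.7 and 63.1 on vector replicates 1 to 3 and 51.5, 43.4 and 47.7 on CCN5 replicates 1 to 3, which overlapped as deposited. Its difference of -0.35 after quantile normalization was 0.10 on the deposited scale. COL5A3 read 181, 226 and 236 with the vector label and 226, 173 and 174 with the CCN5 label (-0.16, SE 0.082). For both genes the labels overlapped as deposited but separated after quantile normalization. Of the 11 fibrillar genes 6 were lower and 5 higher, and 4 lay below the 25th percentile. The median log2 difference was -0.021. On the deposited scale 4 were lower and 7 higher, and with median centring 3 and 8.

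For the 6 type IV genes of basement membranes the labels overlapped. Among all named genes the labels separated for 15.96% with CCN5 below and 12.01% with CCN5 above, so 0 of 6 is not a result about this class. Human type IV genes lie in back-to-back pairs, and by RefSeq a stretch of 126 bases separates the starts of COL4A1 and COL4A2, 418 those of COL4A3 and COL4A4, and 379 those of COL4A5 and the nearer start of COL4A6. COL4A1 and COL4A2, whose chains form the trimer found in nearly every basement membrane, were bright. COL4A1 read 3275, 3527 and 3737 on vector replicates 1 to 3 and 3394, 3203 and 3274 on CCN5 replicates 1 to 3. COL4A2 read 9779, 10659 and 10380 with the vector label and 10411, 8893 and 9118 with the CCN5 label. The labels overlapped for both, with differences of -0.086 (95% interval -0.30 to 0.13) and -0.12 (-0.39 to 0.14).

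COL4A5 and COL4A6, chains of the basement membranes of kidney, skin and smooth muscle, overlapped as well. COL4A5 read 961, 1068 and 886 with the vector label and 1094, 849 and 969 with the CCN5 label. COL4A6 read 755, 756 and 693 with the vector label and 766, 663 and 767 with the CCN5 label. Their differences of 0.038 (-0.26 to 0.33) and 0.025 (-0.24 to 0.29) turned below 0 on the deposited scale. In the third pair, COL4A3 and COL4A4, chains of the glomerular basement membrane, lay at percentiles 4.80 and 27.8 by their brightest probes. Over the 6 genes 4 were lower and 2 higher, and the median was -0.020, but with median centring 2 were lower and 4 higher. At an unadjusted p under 0.05, 0 of the 6 were called, beside 11.2% lower and 8.58% higher among all named genes.

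**Figure D3:**
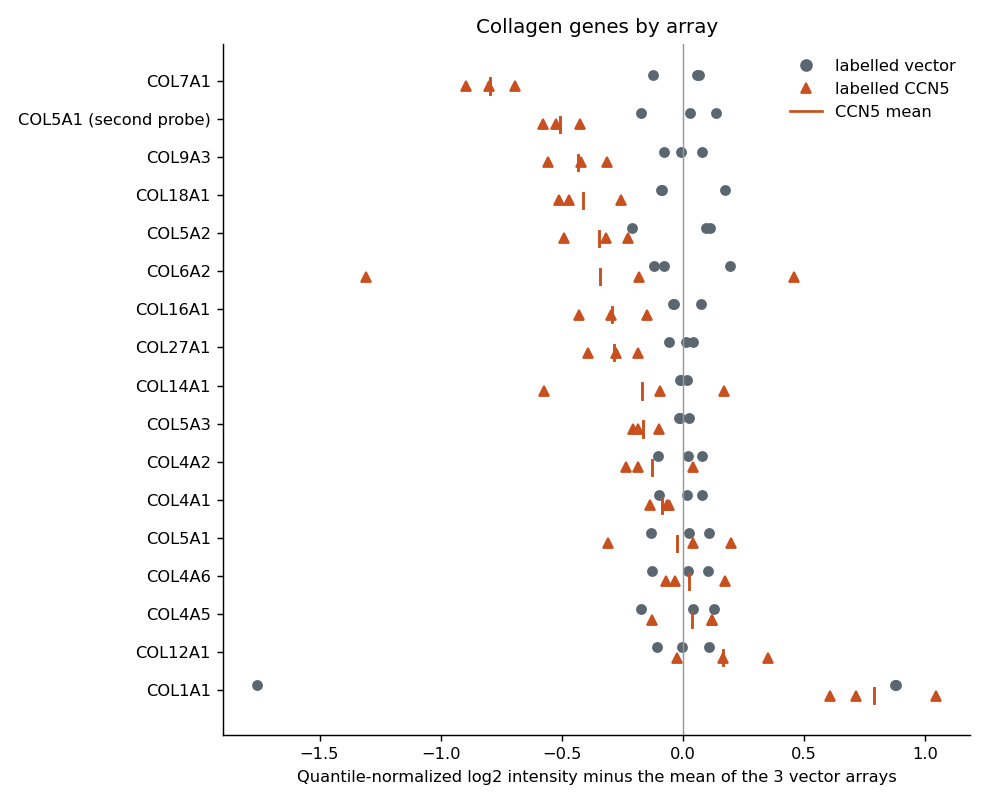
Quantile-normalized log2 intensity minus the mean of the 3 vector arrays (horizontal axis) for 16 collagen genes, by brightest probe, with the second COL5A1 probe added. Circles are arrays labelled vector, triangles arrays labelled CCN5 and the short bar the CCN5 mean. COL7A1 has the lowest CCN5 mean at -0.80, and single arrays of COL6A2 (CCN5 replicate 2) and COL1A1 (vector replicate 3) lie farther left. The CCN5 means of the 4 type IV genes shown lie between -0.12 and 0.038.

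Fibril-associated collagens, which sit on the surface of fibrils, lay on both sides of 0. COL9A3, a chain of type IX collagen of cartilage, read 9066, 8397 and 9403 with the vector label and 6680, 7346 and 6106 with the CCN5 label. The labels did not overlap, and the difference was -0.43 (SE 0.10, limma's adjusted p 0.138, and 0.0388 without the dimmer 50% of probes). COL16A1, the type XVI chain, read 5870, 6203 and 5868 with the vector label and 5409, 4928 and 4370 with the CCN5 label (-0.29, SE 0.10, limma's adjusted p 0.215).

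COL12A1, the type XII chain found along type I fibrils, was slightly higher in mean without separating the labels. It read 3178, 3664 and 3411 with the vector label and 3829, 3389 and 4242 with the CCN5 label (0.17, 95% interval -0.13 to 0.47). COL14A1, the related type XIV chain, read 1279, 1291 and 1307 with the vector label and 1492, 1168 and 800 with the CCN5 label. Its difference of -0.17 (SE 0.19) was 0.035 without CCN5 replicate 3, and a dim second probe gave 0.81 (SE 0.39). Of 10 fibril-associated genes 7 were lower and 3 higher, a split that turned to 3 lower and 7 higher on the deposited scale and with median centring.

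Of the remaining types, COL18A1, the multiplexin whose end fragment is endostatin, read 512, 665 and 571 with the vector label and 442, 390 and 438 with the CCN5 label. The labels did not overlap, at a difference of -0.41 (SE 0.12, limma's adjusted p 0.168). COL6A2, a chain of the beaded filaments of type VI collagen, read 997, 1006 and 1271 with the vector label and 1533, 411 and 891 with the CCN5 label. Its arrays of the CCN5 label spread on both sides of the vector arrays, and the difference of -0.34 (SE 0.42) was 0.14 without CCN5 replicate 2, while a second, dimmer probe gave -0.12. The 3 membrane-spanning collagens measured, COL13A1, COL23A1 and COL25A1, were dim, at percentiles 38.6 to 42.8, with differences of -0.27 to -0.016. Over the 26 genes of the other types 17 were lower and 9 higher, and the median was -0.084. The split was 12 lower and 14 higher on the deposited scale and with median centring. At an unadjusted p under 0.05, 5 were lower (19.2%) and 0 higher, beside 11.2% and 8.58% of all named genes.

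The other 27 collagen genes all lay below the 50th percentile by their brightest probe, 15 of them below the 25th. Of these 15 were lower and 12 higher, from -0.35 to 0.45 with a median of -0.016. On the deposited scale 8 were lower and 19 higher, and with median centring 7 and 20. Only COL8A2, a short-chain collagen of the corneal endothelial membrane, had an unadjusted p under 0.05 among them (-0.25, SE 0.092), or 3.7% of the 27 beside 9.43% lower and 5.84% higher among all dim genes. Of the 10 genes with several probes, 5 had probes of both signs, COL14A1, COL1A2, COL25A1, COL4A4 and COL6A3. The widest split was that of COL14A1.

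Genes that make, receive and break down collagen were set beside the chains, in lists of 19, 23, 11 and 14 measured genes. By brightest probe 0 of their members passed. In alternative fits over all probes, with a trended, robust variance and on log2(value + 50), 4 passed as lower in each. The shares of all probes called lower were 1.19% and 0.637%. Of 19090 named genes by brightest probe, 265 and 141 were called lower and 138 and 42 higher. The 4 were P4HA2 (limma's adjusted p 0.0145 and 0.0342), ITGA2 (0.0145 and 0.0320), MMP13 (0.0145 and 0.0320) and MMP14 (0.0145 and 0.0333). Without the dimmest 25% of probes the same 4 passed as lower, beside 0.712% of the probes tested. Of 14962 named genes kept there, 124 passed as lower and 24 as higher. Without the dimmest 50% PCOLCE, BMP1, ADGRG1 and DDR1 passed as lower in addition to these 4, beside 4.01% of the probes tested. The lists then held 17, 15, 5 and 7 genes. Of 10560 named genes kept there, 447 passed as lower and 317 as higher. In these fits 0 of the listed genes passed as higher. Among 19 measured genes of intracellular chain modification and folding, 17 lay above the 50th percentile, 7 were higher and 12 lower, with a median of -0.088. P4HA2, a catalytic subunit of collagen prolyl 4-hydroxylase, read 8107, 9110 and 8896 with the vector label and 5176, 5875 and 4969 with the CCN5 label. This was a separation of the labels with a difference of -0.73 (SE 0.10), limma's adjusted p being 0.0969 and 0.0120 without the dimmer 50% of probes. The lysyl hydroxylase PLOD1 stood at -0.26, the prolyl isomerase FKBP14 at 0.28 and the prolyl 3-hydroxylase P3H2 at 0.25.

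Among 23 measured genes of secretion, propeptide cleavage and cross-linking, 13 were lower and 10 higher, with a median of -0.031. The procollagen proteinase enhancer PCOLCE stood at -0.47 (SE 0.10) and the procollagen C-proteinase BMP1 at -0.43 (SE 0.11), with a second BMP1 probe at -0.16. LOX, the lysyl oxidase that starts cross-linking, stood at -0.49 (SE 0.14) with other probes at -0.65 and -0.11, and PREB, an exchange factor for coat assembly at the endoplasmic reticulum, at 0.39 (SE 0.12).

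Collagen receptors had 6 lower and 5 higher of 11 measured, with a median of -0.35 that was 0.032 on the deposited scale and 0.077 with median centring. ITGA2, the integrin chain that binds collagen together with ITGB1, read 2203, 2401 and 2214 with the vector label and 1137, 1301 and 1264 with the CCN5 label (-0.86, SE 0.11, limma's adjusted p 0.0969, and 0.0117 without the dimmer 50% of probes). ITGB1 itself stood at 0.0052, and its second probe at -0.14. The collagen-activated kinase DDR1 stood at -0.38 (SE 0.10), ADGRG1, an adhesion receptor for type III collagen, at -0.41 (SE 0.10), and MRC2, an uptake receptor for collagen, at -0.76 (SE 0.16, with a second probe at -0.48) at percentile 43.9. Of 14 genes of collagen degradation 11 were lower and 3 higher, with a median of -0.17. MMP14, a membrane-bound collagenase, read 15264, 15556 and 16666 with the vector label and 8887, 10759 and 8656 with the CCN5 label (-0.78, SE 0.11, limma's adjusted p 0.0969). The collagenase MMP13 stood at -0.81 (SE 0.11), the gelatinase MMP2 at -0.34 (SE 0.15) and the cathepsin CTSK at -0.27 (SE 0.11).

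**Figure D4:**
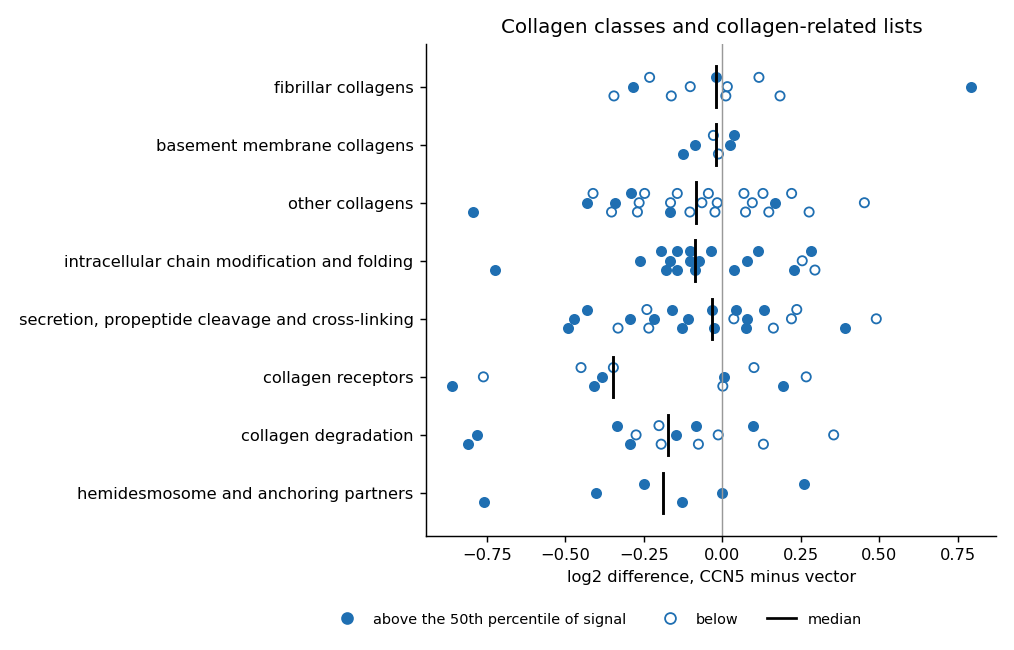
Log2 difference (CCN5 label minus vector label, horizontal axis) of each gene in the 3 collagen classes and 5 collagen-related lists, by brightest probe. Filled points lie above the 50th percentile of signal, open points below, and black bars are list medians, which run from -0.35 for receptors to -0.020 for basement membrane collagens.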

How the data were processed

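Total RNA was converted to antisense RNA from an oligo(dT) primer and labelled with Cy3, per the labels' protocols. The deposited values are 1 linear intensity per probe and array. The scanner, background correction and scaling by the authors were not given in the sources used here.

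Intensities under 1 were set to 1 (5.35% of probes on vector replicate 1, under 0.1% elsewhere), log2-transformed, quantile normalized and fitted in R 4.3.3 by lmFit and eBayes of limma 3.58.1 (two-sided) over all 28264 probes and 6 arrays without covariates. The platform annotation named 25893 probes with 1 symbol, 0 with several and left 2371 unnamed. Genes are represented by their brightest probe. Values per array are given for collagen genes above the 50th percentile of signal and the 3 of smallest p in each class, and for other lists up to 4 genes of smallest p are named. Members and lists were chosen with earlier results of these data known. On simulated arrays with independent normal noise, changes were placed in a small share of the brighter 50% of probes. There limma over all 28264 probes recovered 4% of changes of 0.5 (log2) and 66% of changes of 1. Over the brighter 14132 probes it recovered 48% and 88%. Recovery depends on how many probes change, which is not known for the real arrays. The noise took each probe's observed SD as its true SD, in a single draw. These shares are thus not the power of the real arrays. Precision is limited by having 6 arrays. The 15 alternatives covered normalization, the floor, dim probes, the variance model, array weights, the replicate block, the probe rule and each array left out. Figures used matplotlib 3.10.9.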

Additional observations from a re-analysis of the deposited data

How the results depend on the processing

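Without the dimmest 25% of probes 1 collagen probe passed the threshold, without the dimmest 50% 3, on log2(value + 50) 1 and with a trended, robust variance 2, all lower. COL7A1 was among them each time. Under the other settings, including each array left out (0 to 0), 0 passed. Under both filters fewer probes were tested, and the fit was made on the kept probes alone. Without the dimmest 50% the SE of COL7A1 was 0.094 and its unadjusted limma p 2.3e-05. Over all probes these were 0.10 and 1.6e-04. Why probes passed under the filters was not tested. The collagen median was 0.018 on the deposited scale, 0.062 with median centring, -0.10 without the dimmest 25% and -0.12 without the dimmest 50% of probes, and -0.10 to 0.031 (without CCN5 replicate 2) without 1 array. The fibrillar median was 0.10 as deposited, 0.14 with median centring, -0.10 with the mean of a gene's probes and -0.13 to 0.022 without 1 array. The median of other types was 0.034, 0.079, -0.17 and -0.32 under the deposited, centred, 25% and 50% settings, and -0.14 to 0.017 without 1 array. The basement membrane median was 0.039 with median centring and -0.12 to 0.065 without 1 array. The CCN5 probe stayed lower in all 15 alternatives, passed without the dimmest 50% (-0.34, adjusted p 0.0486) and ran from -0.38 to -0.30 without 1 array. Signs turned for some genes, and the cause was not tested. COL5A2 stood at -0.35 over all probes and stayed below 0 without any 1 array (-0.42 to -0.29). COL5A1 gave 0.018 as deposited and 0.062 centred (-0.13 to 0.12 without 1 array), COL5A2 0.10 and 0.14, COL4A5 -0.0046 as deposited (-0.047 to 0.12), COL4A6 -0.0072 as deposited (-0.050 to 0.078), and COL14A1 0.32 with the mean of its probes (-0.34 to 0.035). Without 1 array COL1A1 ran from -0.087 to 1.24 and COL6A2 from -0.75 to 0.14. Deviations of same-numbered arrays correlated at -0.14, 0.12 and 0.02, so the numbers were not taken to pair the arrays, and with the replicate block 0 collagen probes passed and the collagen median was -0.044. Without detection flags, differences of dim probes cannot be told from background.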
